A study of Mus musculus with 28 samples.

Results

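The 32 h response of Zic2 knockout (KO) cells was read as the change in transcript levels, within each of 2 KO clones of mouse embryonic stem cells, between culture in 2i and 32 h after its withdrawal. Its members were the 4 libraries labelled Zic2 KO at 32 h and in 2i (the stage ESC), of 28 libraries in the series, with each clone's 32 h library set against its own ESC library. The compared groups were Ehmt1/Zic2 KO, Ehmt1 KO and wild type (WT) cells of the same polyA set, each with 2 clones or lines sequenced at both stages, which makes 16 libraries. The KO clones are labelled KO.1 and KO.2 (clones 1 and 2), and the WT lines Ehmt1_WT and Zic2_WT (WT lines 1 and 2). All cells were of the female line RGd2, which carries a GFP and Blasticidin reporter in Rex1 (Zfp42). ESC cells grew on gelatin in N2B27 medium with the inhibitors CHIR99021 (of Gsk3) and PD0325901 (of Mek), and 32 h cells had been in N2B27 without them. Each line is a single clone or line, and the labels do not say how Zic2 was altered or in which part. Nothing says that the lines were cultured independently. The p-values measure the spread of the 32 h change between these lines within a genotype, pooled over the 4 genotypes.

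Zic2 is a zinc finger transcription factor of the family of the fly gene odd-paired, whose mouse members act in gastrulation and in the early nervous system. In 2i, inhibition of Gsk3 keeps beta-catenin active and inhibition of Mek blocks Erk signalling, which together hold stem cells in the naive state of the preimplantation epiblast. Once 2i is removed, cells shut off naive transcription factors and pass through a formative state that resembles the epiblast just after implantation and is competent to form germ layers.

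Total counts were 23683147 and 24389250 at 32 h and 19310380 and 21553315 at ESC in Zic2 KO clones 1 and 2, within the range of 19013882 to 28777604 of the 16 polyA libraries. Levels are given in CPM, each library's counts scaled to a common total. Calls were made where edgeR's quasi-likelihood test, with the line as a block, gave adjusted p below 0.05, and log2 fold changes are printed ± their standard errors. The summed CPM of 5 stem cell markers was 1510 and 1600 at 32 h, against 3380 and 3490 at ESC. The summed CPM of 7 fibroblast markers was 7.58 and 7.54 at 32 h, against 3.77 and 4 at ESC, with Postn at 0 in all 4 libraries. Fewer cells of a type and less RNA per cell cannot be told apart in such bulk samples. Of the 15667 genes tested, 6663 (42.5%) changed in Zic2 KO cells, 3417 higher at 32 h (21.8%) and 3246 lower (20.7%), and 2958 of them (18.9%) changed at least 2-fold.

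Zic2 itself (Entrez 22772, GRCm38 chromosome 14, 122475384 to 122480328) was not lower in the libraries labelled Zic2 KO. It had 156 and 228 CPM at 32 h and 107 and 149 CPM at ESC in clones 1 and 2, against 146 and 144 CPM at 32 h and 111 and 105 CPM at ESC in WT lines 1 and 2. Since the altered part of the gene is not given, these counts do not check the label, and Zic2 KO stands for the libraries labelled so. Both clones were higher at 32 h, clone 2 above clone 1 at both stages, and the log2 fold change was 0.58 ± 0.10 (adjusted p = 0.00024), a call that was lost without the block (adjusted p = 0.29). Its relatives Zic5 and Zic1 rose. Zic5 had 39.7 and 63 CPM at 32 h, against 20.4 and 26.1 CPM at ESC (1.12 ± 0.16, adjusted p = 8.06e-05). Without the block Zic5 lost its call as well (adjusted p = 0.056). Zic1 had far fewer reads, with 2.44 and 2.58 CPM at 32 h, against 0.105 and 0.140 CPM at ESC (4.30 ± 0.46, adjusted p = 7.75e-06), and Zic4 did not pass the filter on low counts.

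Most naive genes were lower at 32 h in both Zic2 KO clones. Of 19 naive genes 18 fell (20.7% of all genes did) and 1 rose (21.8% of all genes did), with a median log2 fold change of -2.24, against 0.02 over all genes tested. Esrrb, a nuclear receptor at the centre of the naive network (chromosome 12, 86361117 to 86521628), had 45 and 56.8 CPM at 32 h in clones 1 and 2, against 759.7 and 753 CPM at ESC. Its log2 fold change was -3.90 ± 0.12 (adjusted p = 1.59e-10). Tfcp2l1, a grainyhead-like factor that sustains self-renewal, had 28.4 and 29.5 CPM at 32 h, against 633 and 648 CPM at ESC (-4.47 ± 0.14, adjusted p = 1.59e-10). The T-box gene Tbx3 had 4.42 and 4.83 CPM at 32 h, against 104 and 135 CPM at ESC (-4.68 ± 0.24, adjusted p = 8.73e-08). In each of these 3 genes the stages lay far apart and the clones close together, and the stages did not overlap, as in 75.9% of all genes tested.

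Nanog, the homeobox factor of the naive epiblast, had 81.4 and 82.8 CPM at 32 h, against 695 and 775 CPM at ESC (-3.16 ± 0.16, adjusted p = 3.99e-08). Klf4, a Kruppel-like factor downstream of Lif, had 1.90 and 2.62 CPM at 32 h, against 15.2 and 17.8 CPM at ESC (-2.87 ± 0.17, adjusted p = 1.55e-08). Prdm14, a repressor of Fgf signalling and DNA methylation in naive cells, had 2.57 and 2.38 CPM at 32 h, against 32.4 and 34.7 CPM at ESC (-3.76 ± 0.20, adjusted p = 6.97e-09). The log2 fold changes of Jam2, Tcl1, Nr5a2, Tdh and Dppa3 were -3.63 ± 0.19, -3.27 ± 0.20, -2.53 ± 0.12, -2.24 ± 0.10 and -1.90 ± 0.20, each called, although Dppa3 was not called without the block (adjusted p = 0.2). Klf2 (-1.63 ± 0.20), Klf5 (-1.61 ± 0.12), Zfp42 (-1.49 ± 0.13), Nr0b1 (-1.13 ± 0.16), Stat3 (-0.82 ± 0.15) and Fgf4 (-0.71 ± 0.12) fell less than those. Tet2, which oxidises methylated DNA, had 93.6 and 102 CPM at 32 h, against 148 and 144 CPM at ESC (-0.58 ± 0.18, adjusted p = 0.024), and lost its call without the block, with no filter on low counts and without either clone. The member that rose was Gbx2, a homeobox target of Stat3, with 53.2 and 63.6 CPM at 32 h, against 13.9 and 18 CPM at ESC (1.87 ± 0.32, adjusted p = 0.0016).

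**Figure D1:**
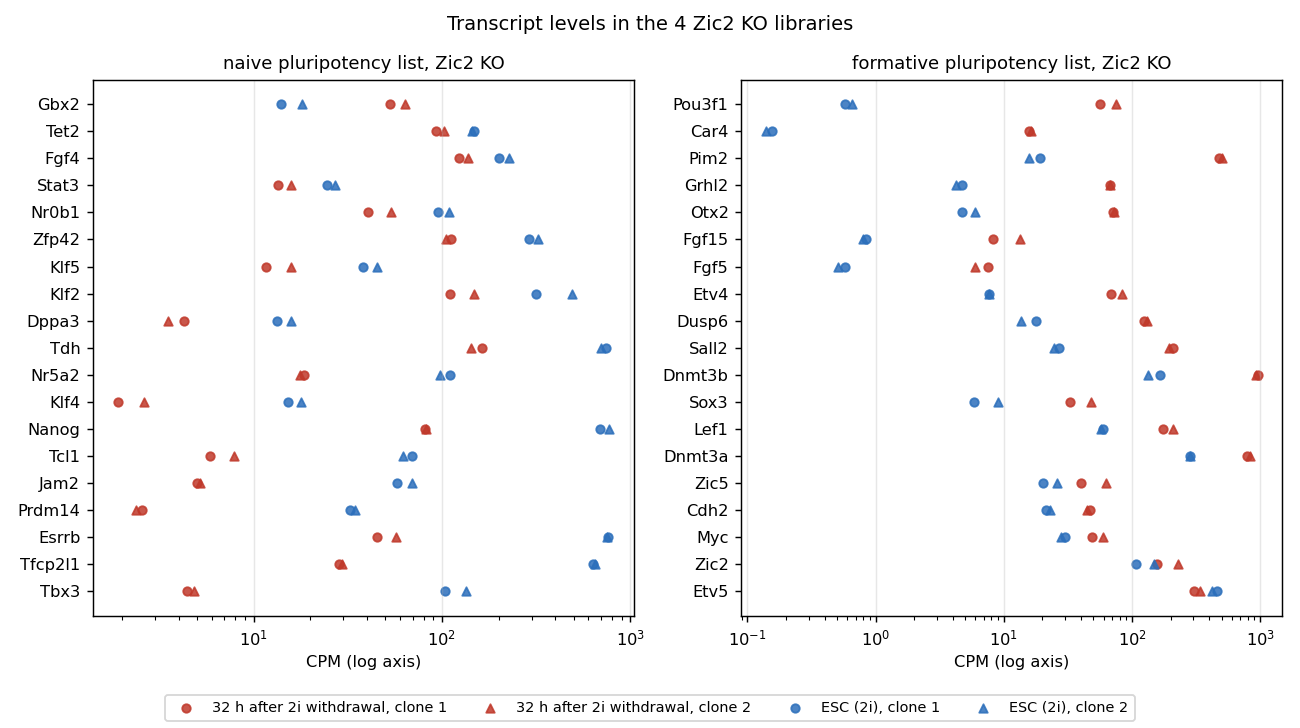
Transcript levels in CPM (log axis) of the 19 naive and 19 of the 20 formative genes in the 4 Zic2 KO libraries; red points are 32 h, blue points ESC, circles clone 1 and triangles clone 2, each point 1 library. For naive genes other than Gbx2 the 32 h points lie left of the ESC points, and for formative genes other than Etv5 right of them within each clone.

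Genes shared by naive and formative cells moved in both directions. Of 12 general pluripotency genes 7 rose and 3 fell, while 4 rose without clone 2, and 1 fell without either clone, without the block and with DESeq2; the 3 lower of 12 are near the 20.7% of all genes. Pou5f1, the central pluripotency factor Oct4, had 1144 and 1193 CPM at 32 h, against 1427 and 1338 CPM at ESC (-0.24 ± 0.09, adjusted p = 0.039), a call that ended without the block, without either clone, with DESeq2 and with no filter. Its partner Sox2 had 127 and 159 CPM at 32 h, against 209 and 299 CPM at ESC (-0.81 ± 0.11, adjusted p = 3.35e-05). Lin28a, an RNA-binding protein gene that blocks let-7 maturation, had 1232 and 1159 CPM at 32 h, against 343 and 279 CPM at ESC (1.95 ± 0.11, adjusted p = 8.98e-09). Its paralogue Lin28b (1.71 ± 0.14) and the forkhead gene Foxd3 (2.34 ± 0.18) rose as well. Utf1, a chromatin protein gene of pluripotent cells, had 213 and 386 CPM at 32 h, with clone 2 well above clone 1, against 85.7 and 115 CPM at ESC (1.54 ± 0.29, adjusted p = 0.003), and was not called without clone 2 (adjusted p = 0.062). Zfp281 had 209 and 209 CPM at 32 h, against 182 and 178 CPM at ESC, and did not pass the test (0.22 ± 0.11, adjusted p = 0.14).

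Formative genes rose almost as a whole, 19 of 20 (21.8% of all genes did) with 1 lower (20.7% were). Their median log2 fold change was 2.82. Pou3f1, the POU factor Oct6 of the postimplantation epiblast, had 56.6 and 74.5 CPM at 32 h, against 0.575 and 0.651 CPM at ESC (6.73 ± 0.19, adjusted p = 9.13e-11). Otx2, the homeobox factor that opens formative enhancers, had 70.6 and 72.9 CPM at 32 h, against 4.71 and 5.95 CPM at ESC (3.75 ± 0.13, adjusted p = 2.71e-10). The growth factor gene Fgf5, the classic marker of the postimplantation epiblast, had 7.58 and 5.98 CPM at 32 h, against 0.575 and 0.512 CPM at ESC (3.62 ± 0.29, adjusted p = 2.40e-07). Both clones of each of these genes were higher at 32 h than either clone at ESC. Pim2, a serine/threonine kinase gene, had 479 and 500.1 CPM at 32 h, against 19.2 and 15.6 CPM at ESC (4.82 ± 0.16, adjusted p = 3.34e-10). Grhl2, a grainyhead factor of epithelial genes, had 67.8 and 67 CPM at 32 h, against 4.76 and 4.23 CPM at ESC (3.91 ± 0.15, adjusted p = 6.47e-10). The carbonic anhydrase gene Car4 (6.72 ± 0.29), the zinc finger gene Sall2 (2.96 ± 0.11), Fgf15 (3.72 ± 0.35), Sox3 (2.45 ± 0.18), Lef1 (1.70 ± 0.13), Cdh2 (1.05 ± 0.12) and Myc (0.89 ± 0.16) also rose. The member that fell was the Ets factor gene Etv5, with 303 and 339 CPM at 32 h, against 461 and 420.1 CPM at ESC (-0.46 ± 0.10, adjusted p = 0.0016), and its call ended without the block (adjusted p = 0.24) and without clone 1 (adjusted p = 0.15).

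The genes of the DNA methylation machinery had 5 of 10 higher and 2 lower, or 1 lower without the block, with no filter and without either clone, and the 2 lower are near the 20.7% of all genes. The de novo methyltransferase gene Dnmt3b had 959 and 934 CPM at 32 h, against 165 and 134 CPM at ESC (2.67 ± 0.12, adjusted p = 1.74e-09). Dnmt3a, the other de novo enzyme, had 789 and 826 CPM at 32 h, against 281 and 285 CPM at ESC (1.51 ± 0.10, adjusted p = 3.37e-08). Their cofactor Dnmt3l had 373 and 386 CPM at 32 h, against 89.8 and 77.6 CPM at ESC (2.18 ± 0.23, adjusted p = 8.90e-05), and Tet3 rose by 2.16 ± 0.21 on the log2 scale. Both clones of all 3 Dnmt3 genes were higher at 32 h, and the stages did not overlap. The Zic motif CAGCAGG, searched on both strands in the 250 bases before each gene's start, was present in 3 of the 11 formative genes with a RefSeq promoter (27.3%), against 10.6% of the 12234 tested genes with one. It was in 11% of the genes higher at 32 h and 11.3% of those lower. A match is a description of the letters and not a site. Given here are 2 of these promoters, with the motif in capitals and both on the plus strand (RefSeq, GRCm38.p6). They are those of Pim2 at chrX:7878056-7878305 and of Dnmt3a at chr12:3806910-3807159, the window of 1 of the gene's 3 start sites.
Pim2: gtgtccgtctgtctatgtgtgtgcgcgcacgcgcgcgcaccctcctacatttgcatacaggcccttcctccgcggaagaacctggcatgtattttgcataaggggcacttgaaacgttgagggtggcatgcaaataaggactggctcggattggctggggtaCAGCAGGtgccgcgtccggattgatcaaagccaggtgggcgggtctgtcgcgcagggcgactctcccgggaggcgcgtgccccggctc
Dnmt3a: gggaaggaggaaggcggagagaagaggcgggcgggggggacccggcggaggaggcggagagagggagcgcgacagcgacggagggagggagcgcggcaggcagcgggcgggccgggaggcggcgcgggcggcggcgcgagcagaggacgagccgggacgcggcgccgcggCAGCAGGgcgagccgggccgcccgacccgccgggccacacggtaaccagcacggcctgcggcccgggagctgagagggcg

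Targets of Wnt and beta-catenin, which the Gsk3 inhibitor of 2i keeps on, were mostly lower at 32 h. Of 17, 12 were lower (median -1.01) and 4 higher, near the 21.8% of all genes (2 were higher without clone 2). Both inhibitors of 2i were withdrawn together, so their effects cannot be told apart. Cdx1, a caudal homeobox gene, had 0.126 and 0.164 CPM at 32 h, against 75.2 and 79.7 CPM at ESC (-9.0 ± 0.40, adjusted p = 1.22e-08), the lowest fold change of any gene named. Both clones were near 0 at 32 h. Sp5, a zinc finger gene that feeds back on Wnt targets, had 0.801 and 0.532 CPM at 32 h, against 21.3 and 43.2 CPM at ESC (-5.54 ± 0.32, adjusted p = 2.83e-08). Notum, which encodes a secreted enzyme that inactivates Wnt, had 7.16 and 7.33 CPM at 32 h, against 31.4 and 35.7 CPM at ESC (-2.21 ± 0.14, adjusted p = 4.48e-08). The 4 members that rose included Lef1, a partner of beta-catenin on DNA and also a formative gene, and Ccnd2, a D-type cyclin gene with 62.7 and 64.5 CPM at 32 h, against 17 and 18.5 CPM at ESC (1.84 ± 0.14, adjusted p = 2.00e-07). Sp5 was the 1 Wnt target, of 10 with a RefSeq promoter, that held the Tcf/Lef motif CTTTGAT on either strand, which 2.89% of tested genes with a promoter hold. Its promoter (chr2:70474673-70474922, plus strand, GRCm38.p6) is given with that motif in capitals, 104 bases before the gene's start.
Sp5: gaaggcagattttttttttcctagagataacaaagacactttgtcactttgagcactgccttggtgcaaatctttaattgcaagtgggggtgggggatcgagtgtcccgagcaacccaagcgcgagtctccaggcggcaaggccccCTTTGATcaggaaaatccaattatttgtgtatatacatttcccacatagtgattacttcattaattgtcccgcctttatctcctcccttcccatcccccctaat

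Transcripts of the primitive streak, where Wnt acts in the embryo, were lower too. Of 9, 7 were lower (20.7% of all genes were) and 1 higher (21.8% were), with a median of -2.54. The higher one was called neither with DESeq2, nor without the block, nor without either clone. The T-box gene T (Brachyury) had 0.169 and 0.450 CPM at 32 h, against 14.3 and 13.5 CPM at ESC (-5.46 ± 0.37, adjusted p = 6.87e-08). Eomes, another T-box gene, had 4.38 and 4.46 CPM at 32 h, against 25 and 26.4 CPM at ESC (-2.54 ± 0.16, adjusted p = 3.99e-08), and the homeobox gene Evx1 was at -5.05 ± 0.38. The ligand genes Wnt3 and Wnt3a were at -1.53 ± 0.30 and -4.25 ± 0.51. The summed CPM of 4 streak markers was 5.27 and 5.53 at 32 h, against 41.1 and 41.5 at ESC.

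Targets of Fgf and Erk were mostly higher at 32 h, 13 of 21 higher and 4 lower (median 0.94), or 2 lower without the block and without clone 1. The effects of losing the Mek and the Gsk3 inhibitor, withdrawn together, cannot be told apart. The 4 lower of 21 are near the 20.7% of all genes. Dusp6, a phosphatase gene that turns Erk off, had 123 and 130.3 CPM at 32 h, against 17.9 and 13.7 CPM at ESC (3.01 ± 0.15, adjusted p = 4.76e-09). Dusp4, its nuclear counterpart, had 161 and 172 CPM at 32 h, against 15.1 and 11.4 CPM at ESC (3.66 ± 0.20, adjusted p = 5.29e-08). Spred3 (3.31 ± 0.19), an inhibitor of Ras signalling, and the Ets factor genes Etv4 (3.31 ± 0.17) and Etv1 (2.23 ± 0.16) rose. For Dusp6 and Dusp4 the clones were close and the stages did not overlap. The immediate early gene Egr1 went the other way, with 16.4 and 19.2 CPM at 32 h, against 75.7 and 61.6 CPM at ESC (-1.94 ± 0.14, adjusted p = 8.73e-08).

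Nodal and Bmp genes had 10 of 15 lower (median -1.58) and 3 higher, near the 21.8% of all genes. Among the ligands, Nodal had 36.2 and 37.1 CPM at 32 h, against 115 and 121 CPM at ESC (-1.68 ± 0.15, adjusted p = 1.69e-06), and Bmp4 had 3.5 and 3.03 CPM at 32 h, against 24.2 and 22.2 CPM at ESC (-2.83 ± 0.24, adjusted p = 7.41e-07). The inhibitory Smad7, a target of both branches, was at -2.64 ± 0.17. The Id genes, Bmp targets that block helix-loop-helix factors, split: Id4 (-3.58 ± 0.26) and Id3 (-0.81 ± 0.15) fell and Id2 (3.05 ± 0.25) rose. In the Lif and Stat3 list 4 of 10 fell and 2 rose, the higher count being near the 21.8% of all genes. The receptor genes Il6st (-1.05 ± 0.12) and Lifr (-0.94 ± 0.13) fell, and Socs3, the feedback inhibitor of the pathway, had 4.80 and 4.22 CPM at 32 h, against 0.628 and 0.791 CPM at ESC (2.65 ± 0.27, adjusted p = 3.06e-06).

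Among lineage lists, 5 of 8 neural genes rose (21.8% of all genes did) and 1 fell (20.7% did). Sox1, the earliest marker of the neural plate, had 58.4 and 72.9 CPM at 32 h, against 1.36 and 2.23 CPM at ESC (5.19 ± 0.24, adjusted p = 2.30e-09). Sox11 (2.88 ± 0.16) and Pax6 (1.72 ± 0.23) rose, and Nes, which encodes the filament nestin, fell (-1.15 ± 0.14). The summed CPM of 4 neural markers was 178 and 180 at 32 h, against 68.9 and 60.7 at ESC, with Neurog2 at 0 in all 4 libraries. Of 15 primitive endoderm genes 10 rose and 3 fell (near the 20.7% of all genes), while 6 rose without either clone. The members with the smallest adjusted p were mostly genes of endocytosis and basement membrane. Lrp2 (4.64 ± 0.27), Dab2 (2.93 ± 0.29), Col4a1 (1.74 ± 0.15) and Col4a2 (1.42 ± 0.16) rose, while Sparc (-0.94 ± 0.10) and Lama1 (-2.47 ± 0.26) fell. Factors of the lineage were called higher too, namely Gata6 (4.33 ± 0.75), Sox17 (2.20 ± 0.69) and Sox7 (2.67 ± 0.95). Sox17 and Sox7 stayed below 1 CPM in all 4 libraries, and Gata4 and Pdgfra were not called. The summed CPM of the 5 endoderm markers Gata4, Gata6, Sox17, Sox7 and Pdgfra was 15.1 and 16.3 at 32 h, against 9.2 and 6.79 at ESC, and its part in the endoderm counts was not tested. Trophoblast genes had 4 of 10 higher (21.8% of all genes were) and 3 lower (20.7% were). Without the block 1 was higher, and without clone 2 the number higher was smaller too. Cdx2 was at -3.04 ± 0.43 and Tfap2c at -1.69 ± 0.15. The summed CPM of 4 trophoblast markers was 2.99 and 3.69 at 32 h, against 11.4 and 9.4 at ESC. Cdx2 carried this fall, with 1.14 and 1.19 CPM at 32 h, against 10.5 and 8.75 CPM at ESC. Gata3 and Hand1 had higher CPM at 32 h in both clones, and Elf5 had at most 0.0523 CPM.

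Of 14 cadherin and epithelial genes 6 rose (21.8% of all genes did) and 1 fell (20.7% did). The lower call was lost without the block and without either clone. The splicing factor gene Esrp1 had 60.7 and 47.7 CPM at 32 h, against 2.56 and 2.61 CPM at ESC (4.37 ± 0.40, adjusted p = 3.96e-05). The adhesion gene Epcam (2.34 ± 0.17) and the repressor gene Zeb2 (3.67 ± 0.22) rose with it.

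Glucose transport and glycolysis moved upward, with 11 of 16 genes higher and 3 lower, the lower count being near the 20.7% of all genes. Slc2a1, the glucose transporter Glut1, had 1167 and 1204 CPM at 32 h, against 177 and 213 CPM at ESC (2.61 ± 0.10, adjusted p = 3.89e-10). Pfkl (1.41 ± 0.11), Ldha (1.00 ± 0.11), Hk2 (0.83 ± 0.11) and Pdk1 (0.82 ± 0.09), a kinase gene that holds pyruvate out of mitochondria, rose, and Hk1 fell (-1.48 ± 0.14). Oxidative phosphorylation genes had 0 of 16 higher (21.8% of all genes were) and 7 lower (20.7% were), with Cox5a at -0.70 ± 0.13 (adjusted p = 0.00051). Without clone 1 or without clone 2 the number lower was 2. Cholesterol synthesis genes had 8 of 15 higher (21.8% of all genes were) and 0 lower (20.7% were), led by Lss (0.80 ± 0.12). Fewer were higher without clone 1 and without clone 2. In the cell cycle list 9 of 20 rose and 4 fell, where the lower count was near the 20.7% of all genes, with the cyclin gene Ccne1 at 1.03 ± 0.09 and the inhibitor gene Cdkn1a at -1.92 ± 0.13; 5 rose without either clone and without the block, and 1 fell without either clone. The p53 list had 3 of 14 higher, among them Pmaip1 (1.98 ± 0.19), a count near the 21.8% of all genes, and 5 lower, which includes Cdkn1a; 3 were lower without the block and without either clone. Ribosomal protein genes had 0 of 22 higher (21.8% of all genes were) and 2 lower (20.7% were). The lower calls were lost without either clone, without the block and with DESeq2.

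**Figure D2:**
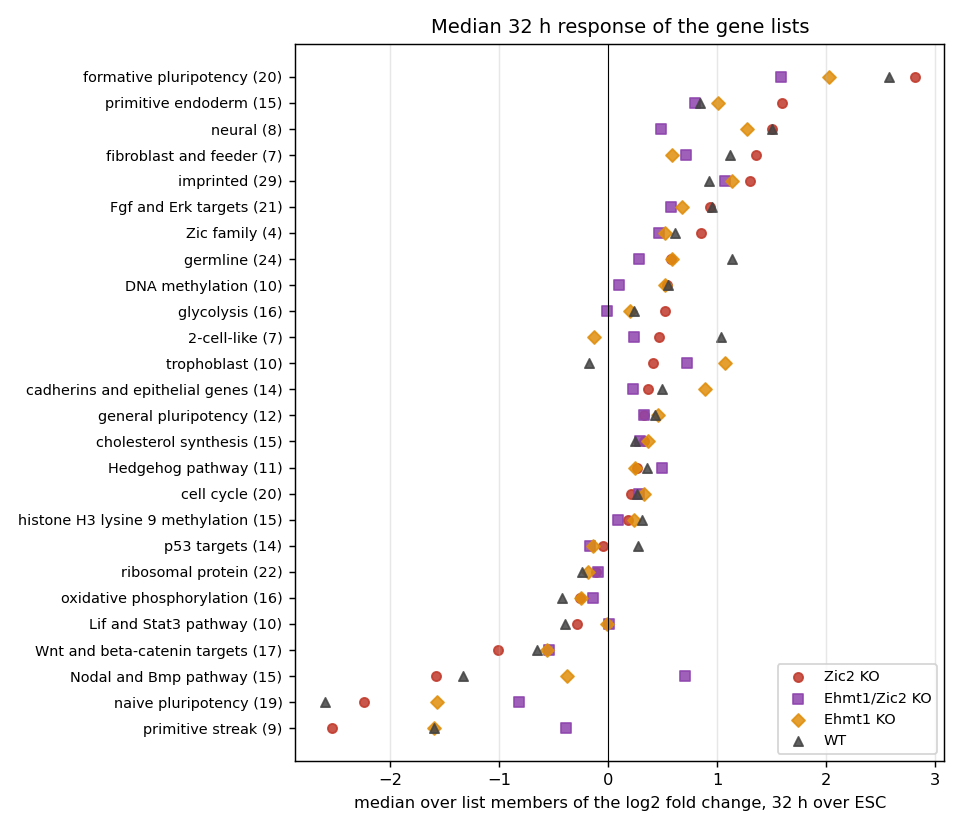
Median log2 fold change (32 h over ESC) over the tested members of each of 26 gene lists, with the number of members in parentheses; each symbol is 1 genotype. In Zic2 KO (red circles) the formative median was 2.82 and the naive median -2.24, against 2.58 and -2.6 in WT (grey triangles).

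Imprinted genes had 20 of 29 higher (21.8% of all genes were) and 3 lower (20.7% were), or 1 lower without clone 2, with a median of 1.30. Plagl1, a maternally imprinted zinc finger gene, had 2.11 and 2.01 CPM at 32 h, against 127 and 136 CPM at ESC (-6.0 ± 0.37, adjusted p = 3.00e-06). Igf2, the paternally expressed growth factor gene, had 27.1 and 16.6 CPM at 32 h, against 2.30 and 1.72 CPM at ESC (3.42 ± 0.22, adjusted p = 4.58e-08). Cdkn1c (2.87 ± 0.22), Nnat (3.00 ± 0.22), Dlk1 (3.75 ± 0.30) and Snrpn (2.17 ± 0.10) rose. H19, the maternally expressed noncoding RNA gene, had 4.34 and 19 CPM at 32 h, against 0.261 and 0.930 CPM at ESC in clones 1 and 2. Clone 2 was above clone 1 at both stages, and the stages did not overlap. Its change within clones was 4.27 ± 0.31 (adjusted p = 1.57e-07), and adjusted p was 0.074 without the block. Of 24 germline genes 11 rose (21.8% of all genes did) and 3 fell (20.7% did), while 6 rose without the block and 7 without clone 2. Mael (1.93 ± 0.14) and Piwil2 (1.27 ± 0.16), of the piRNA pathway, rose, and Dazl, an RNA-binding protein gene of germ cells, had 13.6 and 12.6 CPM at 32 h, against 26.1 and 30.9 CPM at ESC (-1.12 ± 0.16, adjusted p = 7.92e-05).

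Of 15 genes of histone H3 lysine 9 methylation 6 rose and 3 fell, the lower count being near the 20.7% of all genes. Ehmt1 itself had 152 and 147 CPM at 32 h, against 93 and 83.2 CPM at ESC (0.76 ± 0.09, adjusted p = 1.53e-05). Xist, the RNA of X inactivation, had 8.05 and 7.62 CPM at 32 h, against 1.20 and 0.884 CPM at ESC (2.91 ± 0.34, adjusted p = 2.01e-05), while the X chromosome's genes made up 2.85% to 3.11% of the counts in each of the 4 libraries. Hedgehog genes had 5 of 11 higher (3 without the block and without clone 1) and 3 lower, near the 20.7% of all genes, with the transducer gene Smo at 1.46 ± 0.15, Gli1 at 1.21 ± 0.17 and Gli2 at -1.30 ± 0.12. In the 2-cell-like list 2 of 7 rose, a count near the 21.8% of all genes, and 0 fell; 0 rose without the block or without either clone. Of 7 fibroblast genes tested 4 rose (21.8% of all genes did) and 0 fell (20.7% did). The 7 markers summed above are a partly different set, which includes Col3a1, Lum and Postn, all below the filter on low counts.

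Among the largest changes of the whole table were genes close to silent at 1 stage. Csn3, which encodes the milk protein kappa-casein, had 6.62 and 6.43 CPM at 32 h and no count at ESC in either clone, at least 88.3-fold higher against a floor of 3 counts over the ESC libraries. Tnfsf11, which encodes the cytokine Rankl, had 22.8 and 19.9 CPM at 32 h, against 2 counts in all at ESC. Its ratio was 434 (exact interval for counting error at 95% confidence 120 to 3590). Insm1, a zinc finger factor gene of neuroendocrine cells, had 33.4 and 41.1 CPM at 32 h, against 0.471 and 0.465 CPM at ESC (6.30 ± 0.27, adjusted p = 1.41e-09). Among those that fell, Pglyrp1, a peptidoglycan recognition protein gene, had 0.0421 and 0.123 CPM at 32 h, against 20.5 and 21.4 CPM at ESC (-7.89 ± 0.33, adjusted p = 1.11e-09). Dmgdh, a mitochondrial enzyme gene of choline breakdown, was at -6.81 ± 0.39, and S1pr1, a receptor gene for sphingosine 1-phosphate, at -6.82 ± 0.46. In both clones each of these genes changed in the same direction, which follows from naming only genes whose stages did not overlap.

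The 2 clones' responses were close to each other. Over the 15667 genes the within-clone log2 differences of clone 1 and clone 2 had Pearson's r = 0.88, across genes, which are not independent replicates, and 6660 of the 6663 called genes had the same sign in both clones. The standard deviation over genes was 0.53 for the difference between the clones' responses and 1.06 for their mean. Among 10857 genes with at least 5 CPM at either stage, 87.9% had the same sign in both clones, and 3 had opposite signs and lay over 1 log2 unit apart. Nrk, a kinase gene, was farthest apart, with 8.68 and 3.15 CPM at 32 h, against 4.29 and 3.49 CPM at ESC in clones 1 and 2, so it was higher at 32 h in clone 1 and lower in clone 2.

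Set beside WT, the Zic2 KO response shared most of its calls with WT. The WT response held 7378 called genes (47.1%), of which 71.4% were called the same way in Zic2 KO, and 79.1% of the Zic2 KO calls were called the same way in WT. The mean responses of Zic2 KO and WT had r = 0.89 across genes, which are not independent replicates. Called in opposite directions were 11 genes, named here after their values had been seen. Lower in Zic2 KO and higher in WT were Pdzrn4, Zxdb, Kalrn and Cdh3, and higher in Zic2 KO and lower in WT were Lgals1, Pdgfrl, Aard, Tubb3, 1190005I06Rik, Gata2 and Dpysl4. Zxdb, Cdh3, Pdgfrl and Gata2 did not pass the test of the difference itself.

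The test of the difference in response called 50 genes (0.319%), 27 higher (0.172%) and 23 lower (0.147%) in Zic2 KO than in WT, with 1575 at an unadjusted p under 0.05. None of the 50 calls held without the pairing within lines or without Zic2 KO clone 1, Zic2 KO clone 2 or WT line 1: edgeR's quasi-likelihood test called 0 without the block (725 unadjusted), 0 without Zic2 KO clone 1 (915), 0 without clone 2 (742) and 0 without WT line 1 (937), while 473 were called without WT line 2, among them 47 of the 50. DESeq2 called 115, which included 48 of the 50. In 29 of the 50 the fold change had the same sign in both genotypes, with the larger size in Zic2 KO for 14, and in 21 the sign was opposite. The Zic2 KO to WT gap was wider at ESC than at 32 h in 25 genes and wider at 32 h in 25.

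**Figure D3:**
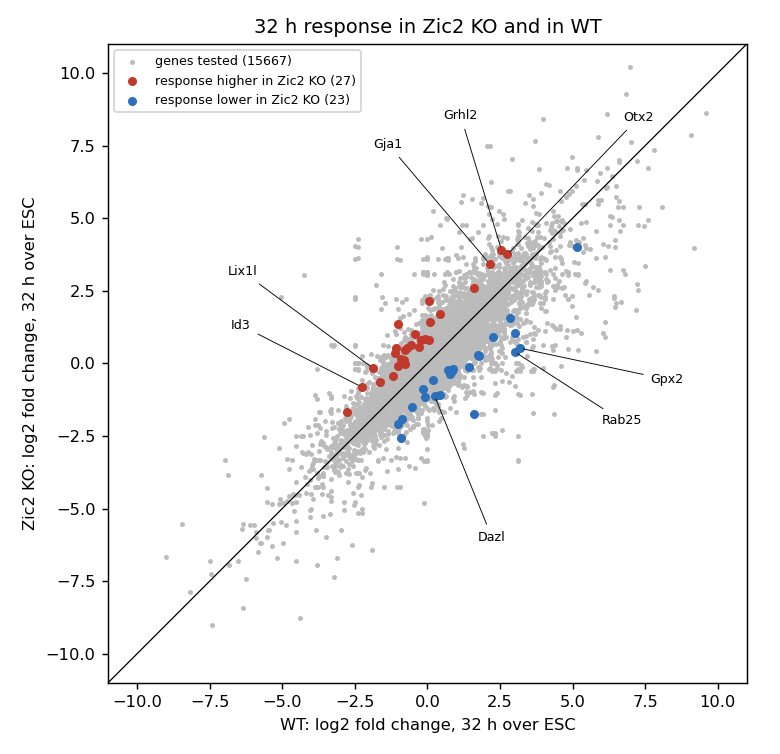
Log2 fold change (32 h over ESC) in Zic2 KO on the vertical axis and in WT on the horizontal axis for 15667 genes (grey); the 27 genes whose response was higher in Zic2 KO are red and the 23 lower are blue, and the line marks equal responses. Most genes lie along the line (r = 0.89 for the mean responses).

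Rab25, Gpx2, Ocln and Fst rose in WT and were not called in Zic2 KO. Rab25, a small GTPase gene of epithelial recycling (chromosome 3, 88542029 to 88548279), had 1.77 and 1.56 CPM at 32 h and 1.20 and 1.30 CPM at ESC in Zic2 KO. In WT it had 9.47 and 10.5 CPM at 32 h and 1.43 and 1.05 CPM at ESC, so the stages were far apart in WT and close in Zic2 KO (difference -2.6 ± 0.39, adjusted p = 0.032). Gpx2, a glutathione peroxidase gene, had 2.40 and 2.09 CPM at 32 h and 1.20 and 1.91 CPM at ESC in Zic2 KO, against 5.66 and 5.93 CPM at 32 h and 0.666 and 0.601 CPM at ESC in WT (-2.66 ± 0.45, adjusted p = 0.034). Ocln, the tight junction gene occludin, had 8.68 and 7.49 CPM at 32 h and 6.85 and 6.23 CPM at ESC in Zic2 KO, against 11.4 and 10.8 CPM at 32 h and 2.99 and 3.71 CPM at ESC in WT (-1.43 ± 0.25, adjusted p = 0.034). Fst, which encodes the activin inhibitor follistatin, had 8.22 and 6.10 CPM at 32 h and 5.81 and 6 CPM at ESC in Zic2 KO, against 13.9 and 16.5 CPM at 32 h and 3.52 and 5.41 CPM at ESC in WT (-1.52 ± 0.26, adjusted p = 0.034). Gpx2 differed between the Zic2 KO clones, with the stages farther apart in clone 1 than in clone 2. The differences of Lratd2, Lypd6, Atp10a and Bcl2l14 were -1.98 ± 0.34, -1.56 ± 0.30, -1.37 ± 0.24 and -1.64 ± 0.31. Dazl differed by -1.37 ± 0.24 (adjusted p = 0.034), with 26.1 and 30.9 CPM at ESC in Zic2 KO, against 6.51 and 11.4 CPM in WT. Kalrn, a guanine nucleotide exchange factor gene, differed by -1.52 ± 0.23 and Nes by -1.06 ± 0.20.

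In the other direction, Id3 held a higher level at 32 h in Zic2 KO. It had 16.3 and 15.6 CPM at 32 h and 27.5 and 28.5 CPM at ESC in Zic2 KO, against 5.18 and 5.06 CPM at 32 h and 25.8 and 23.3 CPM at ESC in WT (1.44 ± 0.23, adjusted p = 0.034). Grhl2 had 103 and 108 CPM at 32 h and 14.7 and 21.7 CPM at ESC in WT, so its level was lower in Zic2 KO at both stages and by more at ESC (1.36 ± 0.20, adjusted p = 0.032). Gja1, the gap junction gene connexin 43, had 403 and 324 CPM at 32 h and 41.6 and 27.3 CPM at ESC in Zic2 KO, against 382 and 389 CPM at 32 h and 98.2 and 76.6 CPM at ESC in WT (1.27 ± 0.19, adjusted p = 0.032). Slc2a1 had 727 and 792 CPM at 32 h and 253 and 247 CPM at ESC in WT, so both Zic2 KO clones lay above both WT lines at 32 h and below them at ESC (1.01 ± 0.13, adjusted p = 0.032). Pdk1 differed by 0.76 ± 0.12, Tubb3, a neuronal tubulin gene, by 0.85 ± 0.12 and Col4a2 by 1.34 ± 0.23. The differences of Lix1l, Sgce, Itga9, Cotl1, Myb and Lgals1 ranged from 1.26 ± 0.23 to 1.71 ± 0.28. The Wnt effector gene Tcf7 (-0.72 ± 0.13) and the repressor gene Zeb1 (1.07 ± 0.18), both named after their values had been seen, were also called.

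**Figure D4:**
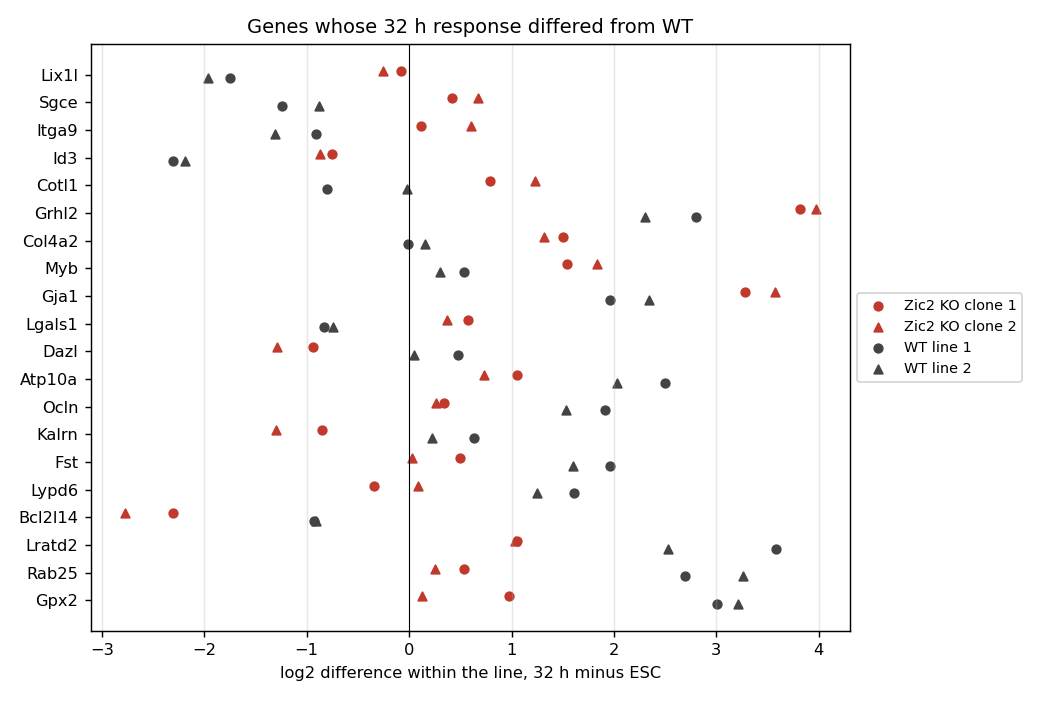
Within-line log2 difference, 32 h minus ESC, of the 20 genes named for a response that differed from WT; red symbols are the 2 Zic2 KO clones and grey symbols the 2 WT lines. In each gene the Zic2 KO symbols lie to 1 side of the WT symbols, which the rule for naming these genes required. The same held in all 50 called genes, and the responses of 43.4% of all genes tested did not overlap in this way.

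Otx2 was the formative gene, beside Grhl2, whose response differed. In WT it had 109 and 85.8 CPM at 32 h and 15.9 and 12.9 CPM at ESC, so Zic2 KO was lower at both stages and by more at ESC (0.99 ± 0.17, adjusted p = 0.034). The naive list had 0 of 19 members called in the difference, a count near the 0.319% of all genes. Its median difference was 0.24, and Esrrb was at 0.32 ± 0.16 (adjusted p = 0.54) and Nanog at 0.01 ± 0.21 (adjusted p = 1). Of the 50 called genes 35 had a RefSeq promoter. The Zic motif was in 2 of them (5.71%, against 10.6% of tested genes with a promoter) and the Otx2 motif GGATTA, searched on both strands, in 3 (8.57%, against 6.11%), among them a start site of Otx2 itself. That window, at chr14:48665110-48665359 on the minus strand and 1 of 4 start sites of the gene, is given with the motif in capitals, 211 bases before the start.
Otx2: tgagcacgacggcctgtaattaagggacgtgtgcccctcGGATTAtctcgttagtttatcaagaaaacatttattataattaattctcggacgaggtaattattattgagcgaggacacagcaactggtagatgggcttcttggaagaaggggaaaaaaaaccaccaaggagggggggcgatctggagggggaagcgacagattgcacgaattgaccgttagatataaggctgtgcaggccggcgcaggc

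An outside gene set allowed the sizes of the responses to be read line by line. From the 32 h response of ribo-depleted WT cells, genes called with at least a 2-fold change were chosen, 1199 higher (6.32% of 18971) and 740 lower (3.9%). The fit that called them also held the ribo-depleted Zfp281 KO libraries at ESC and 32 h. None of these libraries took part in the polyA fit. In the polyA fit 1161 and 729 of them were tested. The median log2 difference of the higher genes was 1.61 and 1.64 in Zic2 KO clones 1 and 2, against 1.91 and 1.72 in WT lines 1 and 2. For the lower genes it was -1.75 and -1.73 in Zic2 KO, against -1.97 and -1.85 in WT. Both clones lay closer to 0 than both WT lines in either set. The genes were chosen for a large change in WT cells, which favours WT, so these medians do not compare response sizes evenly. Of the higher genes 82.3% were called the same way in Zic2 KO and 90.9% in WT, and of the lower genes 88.2% in Zic2 KO and 93.8% in WT. Of the 2 ribo-depleted WT lines, Zfp281_WT had counts in 87% and 89% of olfactory receptor genes. Without it the shares for Zic2 KO were 73.5% (higher) and 82% (lower), against 83.4% and 86.4% for WT.

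**Figure D5:**
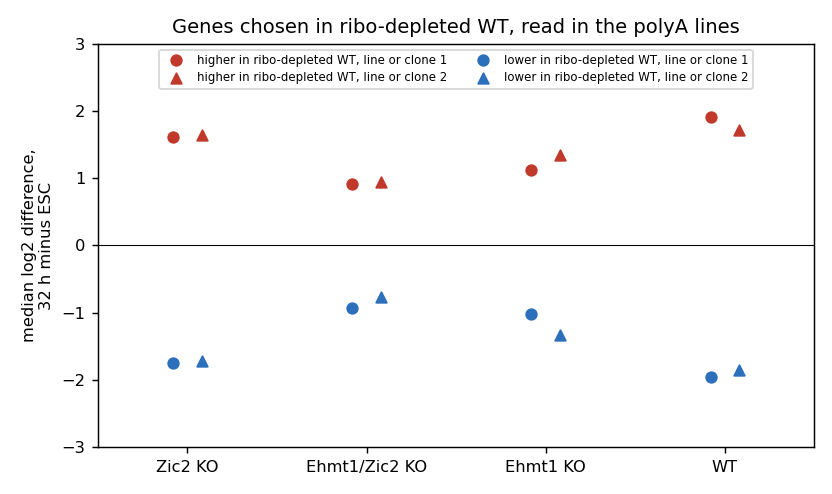
Median log2 difference, 32 h minus ESC, in each polyA line (circle, line or clone 1; triangle, line or clone 2) over genes chosen in ribo-depleted WT cells as higher (red) or lower (blue) at 32 h. Zic2 KO medians were 1.61 and 1.64 for the higher genes, against 1.91 and 1.72 in WT.

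The other KO genotypes responded less on the same genes. The higher set had medians of 0.91 and 0.95 in the Ehmt1/Zic2 KO clones and 1.12 and 1.35 in the Ehmt1 KO clones. The test of the Zic2 KO response against that of Ehmt1/Zic2 KO called 1642 genes (10.5%), and 475 without the block. Against Ehmt1 KO it called 1402 (8.95%), and 343 without the block. Without 1 of the Zic2 KO clones the counts were 595 and 644 against Ehmt1/Zic2 KO, and 436 and 444 against Ehmt1 KO. Without Ehmt1 KO clone 1 the Ehmt1 KO count was 675 and without clone 2 927. These comparisons share the Zic2 KO libraries with those above.

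Naive genes fell further in Zic2 KO than where Ehmt1 was lost. Of 19 naive genes 16 had a lower (5.76% of all genes did) and 1 a higher response (4.72%) in Zic2 KO than in Ehmt1/Zic2 KO, and 12 had a lower (4.9%) and 0 a higher response (4.05%) than in Ehmt1 KO. Esrrb had 215 and 246 CPM at 32 h and 597 and 671 CPM at ESC in Ehmt1/Zic2 KO clones 1 and 2, a log2 fold change of -1.46 ± 0.11. The difference of Zic2 KO from it was -2.44 ± 0.16 (adjusted p = 2.32e-06), and the difference from Ehmt1 KO was -1.35 ± 0.16 (adjusted p = 0.00019). Klf4 differed by -2.22 ± 0.21 from Ehmt1/Zic2 KO and -1.03 ± 0.21 from Ehmt1 KO, the second of which lost its call without the block and without either Zic2 KO clone. Nanog differed by -2.02 ± 0.21 and -1.37 ± 0.21, and Tfcp2l1 by -2.03 ± 0.17 and -1.66 ± 0.17. Sox1 responded more in Zic2 KO, by 3.30 ± 0.81 against Ehmt1/Zic2 KO (adjusted p = 0.018) and 3.26 ± 0.50 against Ehmt1 KO (adjusted p = 0.0012), and both calls ended without the block. Against Ehmt1/Zic2 KO the Sox1 call also ended without Zic2 KO clone 1 (adjusted p = 0.056) and without Ehmt1/Zic2 KO clone 1 (0.094) or clone 2 (0.19). Olig3, a helix-loop-helix gene of the neural tube, had 23 and 22.7 CPM at 32 h and 3.97 and 2.28 CPM at ESC in Zic2 KO, against 2.87 and 2.12 CPM at 32 h and 6.74 and 2.48 CPM at ESC in Ehmt1/Zic2 KO (3.71 ± 0.46, adjusted p = 0.00043). Grhl2 differed by 3.57 ± 0.20 and 3.14 ± 0.20, and the phosphodiesterase gene Pde2a by 3.68 ± 0.29 and 3.90 ± 0.28, from Ehmt1/Zic2 KO and Ehmt1 KO. Nodal differed by -1.45 ± 0.20 and -1.31 ± 0.20, and the call against Ehmt1 KO ended without the block (adjusted p = 0.1). Fgf5 responded less in Zic2 KO than in Ehmt1 KO (-2.22 ± 0.49, adjusted p = 0.012), a call lost without the block (0.48), without either Zic2 KO clone (0.089 and 0.12) and without Ehmt1 KO clone 1 (0.058).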

How the data were processed

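Counts per gene were deposited by the authors as whole numbers in 1 table, with no normalization, and were used as deposited. The submitters' processing notes name the build GRCm38 (mm10) and edgeR; for the aligner, the counter and its strand setting, nothing is stated (not given in the sources used here). PolyA libraries were made with TruSeq mRNA and the ribo-depleted ones with ScriptSeq, per the labels' protocols. Of 24116 gene IDs, 24061 had a symbol.

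In R 4.3.3, edgeR 4.0.16 (limma 3.58.1) fitted the 16 polyA libraries with TMM factors, filterByExpr (minimum count 10, total 15), a block for each of 8 lines and a 32 h effect for each of 4 genotypes, which left 4 residual degrees of freedom. Robust quasi-likelihood tests were Benjamini-Hochberg adjusted over 15667 genes. Standard errors were taken as the absolute log2 fold change over the root of its F statistic. The block follows the labels, which give the same line at both stages; within genotypes, the lines' deviations at the 2 stages correlated at 0.41 (Zic2 KO), 0.615 (Ehmt1/Zic2 KO), 0.623 (Ehmt1 KO) and 0.0907 (WT). CPM used TMM library sizes. The procedure was tested on simulated data.

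The members and lists were chosen with earlier results of these data known. Genes named were the Zic genes, Ehmt1, Zfp281 and Xist, and up to 12 per direction with the largest change (at least 5 CPM, stages not overlapping). For each difference in response up to 10 per direction were named (at least 5 CPM, responses of the genotypes not overlapping). Up to 6 of each list by adjusted p were named, and all naive, formative and general pluripotency genes. Up to 6 on which the clones disagreed were added. Alternatives were RLE size factors, DESeq2 1.42.0, no filter, no block, the compared groups alone and leaving out each line. Counting intervals and floors cover counting error only. Libraries at 16 h were not used. Those of Zfp281 KO at ESC and 32 h served only in the fit of 8 ribo-depleted libraries that chose the outside gene set.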

Additional observations from a re-analysis of the deposited data

Results flagged for a closer look

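The test of the difference in response between genotypes picked out the values below, all on the log2 scale and read as the Zic2 KO response minus that of the other genotype. Against WT, with an adjusted p of edgeR's quasi-likelihood test under 0.05, the differences higher in Zic2 KO were Lix1l 1.71, Sgce 1.61, Itga9 1.48, Id3 1.44, Cotl1 1.43, Grhl2 1.36, Col4a2 1.34 and Myb 1.27, followed by Gja1 1.27, Lgals1 1.26, Slc2a1 1.01, Otx2 0.99, Tubb3 0.85 and Pdk1 0.76. The differences lower in Zic2 KO were Gpx2 -2.66, Rab25 -2.6, Lratd2 -1.98, Bcl2l14 -1.64, Lypd6 -1.56 and Fst -1.52, followed by Kalrn -1.52, Ocln -1.43, Atp10a -1.37, Dazl -1.37 and Nes -1.06. Tcf7 at -0.72 and Zeb1 at 1.07 were named after their values had been seen. None of the calls against WT held without the block or without either Zic2 KO clone.

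Against Ehmt1 KO, the lower responses in Zic2 KO were Esrrb -1.35, Nanog -1.37, Tfcp2l1 -1.66, Klf4 -1.03, Fgf5 -2.22 and Nodal -1.31, and the higher ones were Sox1 3.26, Grhl2 3.14, Olig3 3.64 and Pde2a 3.90. Against Ehmt1/Zic2 KO, the lower responses in Zic2 KO were Esrrb -2.44, Nanog -2.02, Tfcp2l1 -2.03, Klf4 -2.22 and Nodal -1.45, and the higher ones were Sox1 3.30, Grhl2 3.57, Olig3 3.71 and Pde2a 3.68. These 3 differences share the Zic2 KO libraries.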

How the results depend on the processing

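With 2 lines a group and 4 residual degrees of freedom, small differences between genotypes could not be resolved at this number of lines, and genes of few counts are known only within wide counting intervals. The 6663 genes called in Zic2 KO became 6652 with RLE size factors, 5294 with DESeq2, 6574 with no filter, 4838 without the replicate block, 9140 with the Zic2 KO libraries alone, and 3462 to 3676 without 1 clone. The share of calls higher at 32 h kept its value to within 49.1% to 52.6% in all of these. For the difference from WT, 50 genes became 45 with RLE size factors, 115 with DESeq2, 146 with no filter, 115 with only the groups compared, 0 without the replicate block and 0 to 473 without 1 line. For the difference from Ehmt1 KO, 1402 became 343 without the replicate block and 436 to 927 without 1 clone. For the difference from Ehmt1/Zic2 KO, 1642 became 475 without the replicate block and 595 to 1237 without 1 clone. The genes chosen in ribo-depleted WT cells were called the same way in Zic2 KO for 73.5% (higher) and 82% (lower) when WT_ribo replicate 2 was left out, an alternative chosen after seeing the data. The cause of these changes was not tested. Of the single-gene values of the Zic2 KO response under these alternatives, 1199 kept their side of the threshold, 73 lost the call and 2 gained it (Zfp281 and Sall4, with the Zic2 KO libraries alone). Where a gene was called in neither fit, a change of direction was not counted. For the difference from WT 158 values kept their side of the threshold and 112 lost the call, for that from Ehmt1 KO 71 and 9, and for that from Ehmt1/Zic2 KO 76 and 4. No single-gene value that was called in the main fit or in the alternative reversed its direction.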
